A study of Mus musculus with 16 samples.

Results

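Regulatory T cells (Treg) were compared with conventional T cells (Tconv) from the visceral adipose tissue (VAT) of wild-type (WT) mice. The members of this comparison are the 7 libraries whose titles name them WT, 3 Treg WT and 4 Tconv WT, of 16 in the series. The other 9 libraries, 4 Treg and 5 Tconv, come from mice whose Treg lack Hpgd and are called KO, and the series asks what that loss does to Treg of fat. Mice of every group were 12 weeks old and of strain C57BL/6JRcc, and the labels name no treatment. The mice were perfused, the fat was digested, and the cells were sorted before 10 ng of RNA entered SMART-seq2, a method that makes libraries from little RNA. One label for the mouse line is shared by all 16 samples, controls included. It names a floxed Hpgd allele (Hpgd fl), the driver Foxp3-YFP-Cre, which places Cre recombinase under the control of the Treg gene Foxp3, and the deletion itself, so WT rests on the titles, and whether WT mice carried the floxed allele or the driver was not stated in what was read here. The series text counts 4 WT animals and 5 with the deletion. The sorting markers and the animal behind each library are not given either, and so p-values describe only how libraries vary, which may be technical.

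Treg are CD4 T cells that hold immune responses in check, and Foxp3 is the transcription factor that defines them. The Treg of visceral fat are known as a tissue-resident population that depends on interleukin-33, whose receptor is encoded by Il1rl1, and on the lipid-sensing receptor Pparg, and that makes interleukin-10 and the repair factor amphiregulin. Tconv of fat are mostly antigen-experienced cells, many of the interferon-producing Th1 kind, which recirculate or stay as memory cells. Both share the machinery of the T cell receptor, and they differ in transcription factors, cytokines, chemokine receptors and adhesion molecules.

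Values below are the deposited levels, which are reads divided by each library's size factor, with 1 added, so a gene without reads is listed at 1. They are not divided by transcript length, and levels of different genes are not compared. Levels are given in the order of the library numbers, 1 to 3 for Treg and 1 to 4 for Tconv. Differences are on the log2(value + 1) scale, Treg minus Tconv, each with its standard error (SE) and a p adjusted by the Benjamini-Hochberg method over all genes tested, from limma. A gene was called when its adjusted p was under 0.05. The WT libraries held 3390220 to 9101383 reads, and reads fell on 13366 to 15308 genes.

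Foxp3 (chromosome X, 7573644 to 7595245 on mm10, plus strand) read 311, 292 and 616 in the Treg libraries and 20.6, 1, 1 and 39.3 in the Tconv libraries. The groups did not overlap, and Tconv WT 2 and 3 had no Foxp3 reads (a log2 difference of 5.64 with SE 0.95 and adjusted p = 0.00144). An exact 2-sided permutation test of the same difference over the 35 splits of 3 against 4 libraries gave p = 0.0571 with the smaller tail doubled and p = 0.0286 with splits ordered by the absolute difference, each the smallest that version can give. Exons of Foxp3 overlap those of Ccdc22 and Ppp1r3f, and without strand the reads that lie wholly in the shared stretches cannot be told apart. Hpgd, the floxed gene, read 73.1, 56.0 and 4.31 in the Treg libraries and had no reads in the 4 Tconv libraries. The value of 4.31 in the third Treg library is 3 reads, a level that goes against its WT title, and that sample is called the library labelled Treg WT 3 here. The mean of Hpgd in the Treg KO libraries was 2.34. Hpgd did not pass the filter for testing, and the genotype of that library was not tested. Results are given with that library and, where it matters, without it.

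T cell markers were present in each of the 7 libraries: the 8 T cell markers in the table summed to between 37210.0 and 40497 in Treg and between 40600.5 and 47546 in Tconv. Markers of other cells were uneven among the libraries. Of 8 red cell and platelet genes, the sum was 46.6 to 114 in Treg and 140.0 to 160122 in Tconv, the highest value coming from globin transcripts in Tconv WT 3, where Hba-a2 alone read 112366. Of 11 neutrophil and mast cell genes, 10 had reads in Tconv and 8 in Treg, and the sum was 1766 to 2496 in Treg and 894 to 15781 in Tconv, led by S100a8 in Tconv WT 1 at 10195. Of 11 macrophage genes, 10 had reads in Tconv and 8 in Treg. Their sum was 1.74 to 56.6 in Treg and 24.4 to 93.4 in 3 Tconv libraries, but 1094 in Tconv WT 1, where the macrophage and neutrophil enzyme Lyz2 read 833. Markers of CD8 T and NK cells (8 genes) summed to 69.5 to 560.0 in Treg and 331 to 1261 in Tconv. Genes that also mark type 2 innate lymphoid cells (12 genes, of which Gata3, Il1rl1 and Rora are used by Treg of fat as well) summed to 13532 to 54261 in Treg and 5052 to 17528 in Tconv. Of these 12 genes 4 were called higher in Treg and 0 lower. They were Gata3, Areg, Il1rl1 and Nmur1, the last chosen after its values were seen. In KO 6 of the 12 were called higher and 0 lower. Platelet factor 4, Pf4, was the 1 called gene of the red cell and platelet list, lower in Treg. The part of these other transcripts in the differences below was not tested. In bulk samples, fewer cells of a type and less RNA per cell cannot be told apart.

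In WT fat 599 of 14319 genes were called (4.18%), 315 higher in Treg (2.20%) and 284 lower (1.98%), around a median log2 difference of 0.00 over all genes tested. Counts of called members in each list below are to be read beside these shares. The differences were large: 283 of the called genes were at least 2-fold higher and 264 at least 2-fold lower in Treg, and 76 and 72 differed at least 16-fold. Of the 599, 561 had Treg and Tconv libraries that did not overlap, which held for 12.0% of all genes tested. Of the genes called lower, 22 had no read in any Treg library, and 12 of those called higher had none in any Tconv library. Protein coding genes made up 576 of the 589 called genes with an annotation in GENCODE M21, and 13164 of the 13721 tested genes with one. Other fits named below are voom, the limma method for read counts, run on the reads recovered from the values, and the same limma fit with other filters, pseudocounts, scaling, weights or prior. Without the library labelled Treg WT 3 the count was 339 (149 higher and 190 lower), of which 293 were among the 599. Without that library and Tconv WT 1 and 3, which hold most of the red cell, neutrophil and macrophage transcripts, 251 genes were called and 216 of them were among the 599.

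**Figure D1:**
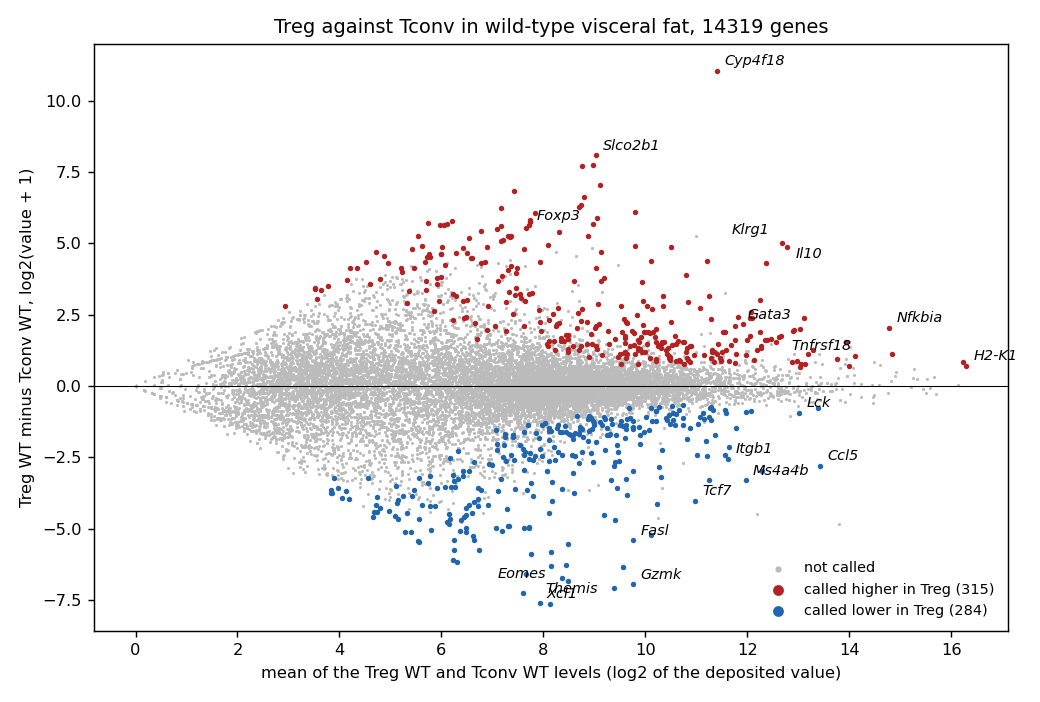
Each point is 1 of 14319 genes; the x axis is the log2 of the mean of the 2 group means and the y axis the log2 difference of Treg WT minus Tconv WT. Red points are the 315 genes called higher in Treg and blue points the 284 called lower, with named examples. Called genes lie over a wide range of levels, and the highest difference is that of Cyp4f18 at 11.05.

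Transcription factors of Treg differed in one direction where they were called. Of 20 factors tested, 7 were called higher and 0 lower, and the median log2 difference was 1.14. Without the library labelled Treg WT 3, 4 were called higher. Ikzf2, which encodes Helios, a partner of Foxp3 in Treg, read 4172, 4651 and 2414 in Treg and 620.3, 882, 526 and 294 in Tconv (a log2 difference of 2.74 with SE 0.30 and adjusted p = 1.38e-05). Gata3, the factor of type 2 lymphocytes that also supports Treg in tissues, read 14539, 7428 and 15214 against 4051, 1988, 3874 and 2590.2 (1.98, SE 0.34, adjusted p = 0.00176). For both genes every Treg library lay above every Tconv library, Treg WT 2 being the lowest of its group for Gata3. Nfkb2 and Relb, partners in the alternative NF-κB pathway, differed by 1.54 and 1.42, and Prdm1, which encodes the effector-cell repressor Blimp-1, by 1.18 (adjusted p = 0.00473, 0.00765 and 0.0191 in limma). Factors that did not pass included Rora at 8086, 2020.4 and 12366 against 4534, 2272, 7891 and 2409 and Bhlhe40, which was lower in each Treg library (3093, 6239 and 5122) than in each Tconv library (10212, 6382, 12439 and 9956; adjusted p = 0.0925 in limma). Pparg, looked up after its values were seen, read 514, 301 and 405 in Treg and 316, 1, 485 and 23.5 in Tconv. Its groups overlapped, since Tconv WT 1 and 3 reached Treg levels while Tconv WT 2 had no reads (2.92, SE 1.44, adjusted p = 0.323). Leaving out 1 library ended 2 of these calls (adjusted p in limma in parentheses): Relb without the library labelled Treg WT 3 (0.0686), and Prdm1 without Tconv WT 4, Tconv WT 1, Treg WT 1 or the library labelled Treg WT 3 (0.0556 to 0.12). By voom Relb (0.0505) was not called, and in a fit of only the WT libraries Relb (0.0684) and Prdm1 (0.0804) were not (limma adjusted p).

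Factors of resting, memory and follicular T cells went mostly the other way, with 5 of 18 called lower and 2 higher and a median of −0.68. The number called lower was 3 without Tconv WT 4, the library labelled Treg WT 3 or Treg WT 2. The number called higher was 0 without Tconv WT 4, the library labelled Treg WT 3 or Treg WT 1 and 1 without Tconv WT 3, Tconv WT 2, Tconv WT 1 or Treg WT 2. Tcf7, which encodes TCF-1, the factor of memory and stem-like T cells, read 146, 404 and 205 in Treg and 4292, 4079, 2804 and 3899 in Tconv (a log2 difference of −4.01 with SE 0.43 and adjusted p = 1.13e-05). The highest Treg library stood far below the lowest Tconv library. Klf3, a repressor of the Krüppel-like family, read 144, 60.3 and 658 against 744, 1511, 1099 and 1186 (−2.61, SE 0.52, adjusted p = 0.00576). Lef1, the close relative of Tcf7, differed by −1.34, Tox, a factor of persistently stimulated T cells, by −1.43, and Zfp36l2, an RNA-binding protein that destabilises transcripts, by −0.76 (adjusted p = 0.0285, 0.0106 and 0.0409 in limma). Tox2 and Klf7 were the members called higher, at 4.35 and 1.30 (adjusted p = 0.0333 and 0.0365 in limma). Abundant factors such as Ets1 (9259, 9446 and 9518 against 10701, 11664, 10942 and 11693) and Bcl11b did not pass. Apart from Tcf7 and Klf3 these calls depended on single libraries (adjusted p in limma): Lef1 without Tconv WT 4, Tconv WT 2, Treg WT 2, Treg WT 1 or the library labelled Treg WT 3 (0.0523 to 0.0864), Tox without Treg WT 2 (0.0526), Zfp36l2 without Tconv WT 4, Tconv WT 3, Tconv WT 1, Treg WT 2, Treg WT 1 or the library labelled Treg WT 3 (0.0594 to 0.172), Tox2 without Tconv WT 4, Tconv WT 3, Treg WT 2, Treg WT 1 or the library labelled Treg WT 3 (0.065 to 0.109), and Klf7 without Tconv WT 4, Tconv WT 2, Tconv WT 1, Treg WT 1 or the library labelled Treg WT 3 (0.0858 to 0.192). By voom Lef1 (0.0759), Tox2 (0.0934) and Klf7 (0.0853) were not called, in a fit of only the WT libraries Klf3 (0.0574), Tox2 (0.158) and Klf7 (0.149) were not, with no filter Klf7 (0.0519) was not, and with quality weights Zfp36l2 (0.11), Lef1 (0.0646) and Tox2 (0.0723) were not (limma adjusted p).

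Among 12 factors of Th1, Th17 and cytotoxic cells, 1 was called, lower in Treg, beside 4.18% called of all genes tested. The number called lower was 2 without Treg WT 2 or without Tconv WT 3, and 0 by voom. The called gene was Eomes (chromosome 9, 118478212 to 118486132), the T-box factor of memory and cytotoxic lymphocytes, which read 1, 1 and 47.3 in Treg and 424, 636, 994 and 531 in Tconv (a log2 difference of −6.73 with SE 1.05 and adjusted p = 0.000727). Tbx21, the Th1 factor T-bet, was looked up after its values were seen. It read 381, 1713 and 111 in Treg and 1778, 1842, 878 and 2578 in Tconv, and the groups overlapped because Treg WT 2 stood at the Tconv level (−1.98, SE 0.65, adjusted p = 0.0998). Of 16 factors induced by antigen signals 2 were called, both lower in Treg. The list as a whole did not lean that way, with a median of 0.50 and 11 of 16 differences above 0. In KO 7 of its members were called higher and 3 lower. Egr2, which limits T cell responses, read 16.5, 1 and 41.8 against 266, 238, 89.6 and 171 (−3.96, SE 0.80, adjusted p = 0.00594), and Nfatc1 read 1217, 1976 and 2381 against 3325, 2786, 3016 and 3110.3 (−0.77, SE 0.21, adjusted p = 0.0469). The immediate early genes Fos, Junb and Nr4a1 were abundant in both cell types and did not pass, at 0.36, 0.26 and 0.76. Nfatc1 was close to the threshold, and its call ended when single libraries were left out (limma adjusted p): Nfatc1 without Tconv WT 4, Tconv WT 3, Tconv WT 2, Tconv WT 1, Treg WT 2 or Treg WT 1 (0.0551 to 0.225). By voom Eomes (0.158) and Nfatc1 (0.0695) were not called, in a fit of only the WT libraries Egr2 (0.0812) and Nfatc1 (0.135) were not, and with no filter Nfatc1 (0.063) was not (limma adjusted p).

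Promoter sequence is shown for the called factors with the highest and the lowest difference that have a window in RefSeq (GRCm38.p6), Foxp3 and Eomes, so that the bases before their starts can be read beside their levels. Each is the 250 bases before an annotated start, 5′ to 3′ on the gene's strand; capitals would mark a GATA core (AGATAA), a forkhead core (TGTTTAC), a TCF/LEF core (CTTTGAA or CTTTGAT) or a T-box core (AGGTGTGA) on either strand, no one of which contains another, and neither window holds one of these letter strings.
Foxp3, chrX:7579426-7579675, plus strand, inside the annotated span of the gene: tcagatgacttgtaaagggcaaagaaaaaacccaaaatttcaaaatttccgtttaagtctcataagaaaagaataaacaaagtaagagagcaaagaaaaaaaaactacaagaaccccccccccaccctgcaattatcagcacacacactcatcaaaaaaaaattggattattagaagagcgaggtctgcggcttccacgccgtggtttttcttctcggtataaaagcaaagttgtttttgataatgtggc
Eomes, chr9:118477939-118478188, plus strand: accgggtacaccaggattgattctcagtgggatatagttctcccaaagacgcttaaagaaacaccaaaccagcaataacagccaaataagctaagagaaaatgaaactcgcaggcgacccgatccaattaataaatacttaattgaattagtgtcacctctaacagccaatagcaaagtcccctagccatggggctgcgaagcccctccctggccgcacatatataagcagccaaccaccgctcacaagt
Of the genes called, 227 higher and 221 lower have a window in this table. The GATA core stood in 7.05% of the windows of genes called higher, 6.79% of those called lower and 6.83% of those of all tested genes with a window. The forkhead core stood in 2.64%, 3.17% and 2.31%, and the TCF/LEF core in 5.29%, 8.14% and 5.80%. For the T-box core the shares were 2.20%, 2.71% and 0.885%, which are 5, 6 and 96 windows. Over all 27025 genes of the table, with the first window listed for each, the shares were 10.3%, 3.09%, 7.67% and 1.14% in the same order. These are matches of letters in 250 bases, not binding sites.

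Genes of the NF-κB system were next, 9 of which rose in Treg. NF-κB is a family of dimeric transcription factors released by tumour necrosis factor (TNF) receptors and by the T cell receptor, and several of its own subunits and inhibitors are its targets. Of 20 genes tested 9 were called higher and 0 lower, all 20 differences were above 0, and the median was 1.22. The number called higher was 3 without the library labelled Treg WT 3 and 5 without Tconv WT 4 or Tconv WT 2. It was 3 by voom and 8 without the library labelled Treg WT 3 and Tconv WT 1 and 3 together. Nfkb1, the p105 subunit, read 6948, 5541 and 11627 in Treg and 3413, 1702, 3862 and 1782 in Tconv (a log2 difference of 1.60 with SE 0.31 and adjusted p = 0.00431). Rel, which encodes c-Rel, a subunit needed for Treg to form, read 2557, 1872 and 3885 against 1244, 661, 1327 and 899 (1.41, SE 0.26, adjusted p = 0.00279). Nfkb2 read 1567, 1436 and 2865 against 617, 537, 1049.7 and 484 (1.54, SE 0.30, adjusted p = 0.00473). In these 3 genes the lowest Treg library lay above the highest Tconv library, and Tconv WT 1 and 3 were the higher Tconv libraries. Genes of the IκB family, which is named for inhibitors of NF-κB, followed: Nfkbia, Nfkbie and Nfkbiz differed by 2.04, 2.00 and 1.63 (adjusted p = 0.0181, 0.0116 and 0.0148 in limma). Tnfaip3, which encodes the inhibitory enzyme A20, read 54918, 37013 and 51498 against 31796, 23805, 41621 and 28974 and did not pass (0.61, SE 0.18, adjusted p = 0.0636). Single calls were lost as follows (limma adjusted p): Relb without the library labelled Treg WT 3 (0.0686), Nfkbia without Tconv WT 4, Tconv WT 2, Treg WT 1 or the library labelled Treg WT 3 (0.0585 to 0.0947), Nfkbie without the library labelled Treg WT 3 (0.0817), and Nfkbiz without Tconv WT 4, Tconv WT 2, Treg WT 1 or the library labelled Treg WT 3 (0.0523 to 0.0739). By voom Nfkbia (0.0647), Relb (0.0505), Nfkbie (0.062) and Nfkbiz (0.0519) were not called, and in a fit of only the WT libraries Relb (0.0684) was not (limma adjusted p).

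Receptors of the TNF family, which feed NF-κB, had 3 of 16 members called higher and 0 lower, with a median of 0.45. Tnfrsf18, which encodes GITR, the costimulatory receptor carried by Treg, read 11296, 9204 and 9501 in Treg and 2993, 2796, 3050.4 and 2833 in Tconv (a log2 difference of 1.77 with SE 0.16 and adjusted p = 2.31e-06). Libraries agreed closely within each group. Tnfrsf4, which encodes OX40, read 11359, 9403 and 15048 against 3573, 2560.4, 4988 and 2034 (1.92, SE 0.25, adjusted p = 0.0001), and Tnfrsf9, which encodes 4-1BB, read 719, 1757 and 2826 against 277, 163, 395 and 76.4 (2.98, SE 0.71, adjusted p = 0.0191). Tnfrsf1b and Cd27 were abundant in both cell types and did not pass (0.06 and 0.28). The ligands went the other way, with 2 of 12 called lower and 0 higher and a median of −1.33. The number called lower was 5 without the library labelled Treg WT 3. Fasl, the death ligand of cytotoxic T cells, read 35.7, 44.6 and 36.3 in Treg and 1405, 1566, 1968 and 1824 in Tconv (a log2 difference of −5.40 with SE 0.82 and adjusted p = 0.000558), and Tnf read 479, 264 and 536 against 1146, 1067, 1141 and 982 (−1.40, SE 0.26, adjusted p = 0.00287). For Fasl and Tnf the groups were far from overlapping. Of these calls, that of Tnfrsf9 was lost when 1 library was left out (limma adjusted p): Tnfrsf9 without Tconv WT 4, Tconv WT 2, Treg WT 2 or the library labelled Treg WT 3 (0.0504 to 0.114). By voom Tnfrsf9 (0.0955) was not called (limma adjusted p).

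Mir155hg (chromosome 16, 84703167 to 84715245), the host transcript of miR-155, a microRNA that sustains T cell activation and Treg fitness, was looked up after its values were seen. It read 226, 185 and 315 in Treg and 53.7, 74.1, 39.2 and 92.2 in Tconv, without overlap (a log2 difference of 1.92 with SE 0.43 and adjusted p = 0.0137). The libraries hold long RNA, so this is the level of the host transcript and not of the mature microRNA. The call was lost without 1 library (limma adjusted p): Mir155hg without the library labelled Treg WT 3 (0.0852). The mature sequence it carries is given from RefSeq (GRCm38.p6, chr16:84714143-84714165, plus strand, 23 bases) with its seed, bases 2 to 8, in capitals, since these letters decide which transcripts it pairs with. In a fit of only the WT libraries Mir155hg (0.123) was not called (limma adjusted p).
mmu-miR-155-5p: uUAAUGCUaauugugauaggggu

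**Figure D2:**
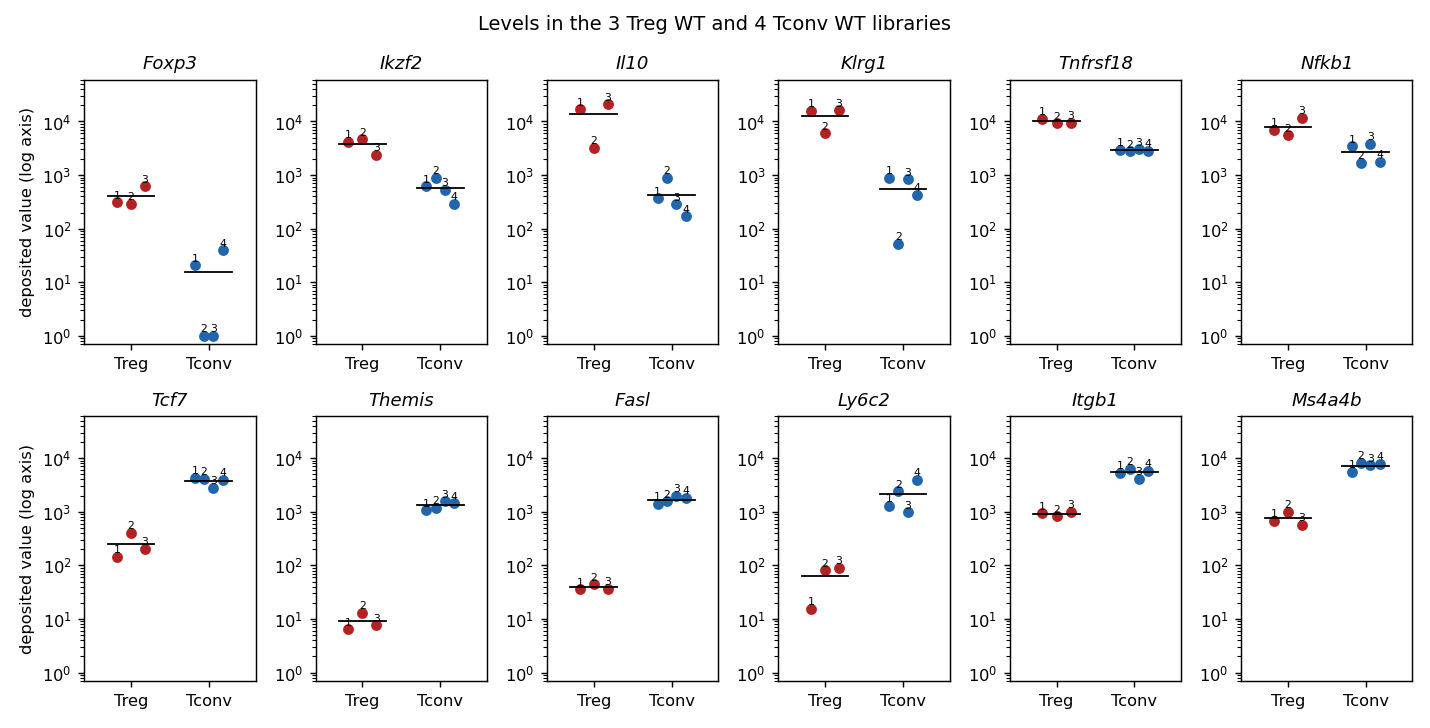
Each panel shows 1 gene; points are libraries with their numbers (red, 3 Treg WT; blue, 4 Tconv WT), the line is the group mean, and the y axis is the deposited value on a log axis on which 1 means no reads. In each of the 12 panels all Treg libraries lie on one side of all Tconv libraries; Themis has a wide gap (6.48 to 13.2 against 1072 to 1579), and Foxp3 is at 1 in Tconv WT 2 and 3.

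Mediators of suppression and repair had 7 of 17 members called higher and 0 lower, with a median of 1.42. Il10, the suppressive cytokine interleukin-10, read 16794, 3199.8 and 20723 in Treg and 372, 888, 287 and 169.9 in Tconv (a log2 difference of 4.86 with SE 0.58 and adjusted p = 3.99e-05). Treg WT 2 stood at a fraction of the other Treg libraries and still above each Tconv library. Ctla4, the receptor through which Treg strip costimulatory ligands, read 6755, 6025 and 8699 against 2498, 2692, 2345 and 3136 (1.42, SE 0.20, adjusted p = 0.000301). Ebi3, a subunit of the suppressive cytokine interleukin-35, read 187, 122 and 127 in Treg and had reads in 1 Tconv library, at 5.06 in Tconv WT 2 (5.77, SE 1.15, adjusted p = 0.00587). Lrrc32, which encodes GARP, the anchor of latent TGF-β on Treg, read 444, 3905 and 803 against 59.9, 88.3, 4.02 and 70.8 (4.90, SE 0.84, adjusted p = 0.00163), here with Treg WT 2 the highest. Fgl2, a secreted suppressor, read 7342, 3670.0 and 6899 against 1183, 620.0, 2429 and 751 (2.41, SE 0.51, adjusted p = 0.00855). Areg, which encodes the repair factor amphiregulin, read 4869.8, 844 and 4187 against 400.1, 123, 494 and 35.9 (3.90, SE 0.88, adjusted p = 0.0136). Lgals1, Furin and Entpd1, the last encoding the ectoenzyme CD39, did not pass, at 0.73, 1.15 and 0.95, and their groups overlapped. The number called was 5 without the library labelled Treg WT 3, also without it and Tconv WT 1 and 3, and 3 by voom. Areg was the gene named here whose call 1 library could end (limma adjusted p): Areg without Treg WT 1 or the library labelled Treg WT 3 (0.0663 and 0.0743). By voom Ebi3 (0.109), Lrrc32 (0.0637) and Areg (0.0955) were not called (limma adjusted p).

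Cytokine receptors had 4 of 21 members called higher and 1 lower (2 lower without Treg WT 1). The number called higher was 1 without Tconv WT 2, the library labelled Treg WT 3 or Treg WT 1 and 2 without Tconv WT 4. Il10ra, the receptor for interleukin-10, read 7661, 4708 and 9178 in Treg and 1208, 1399, 1752 and 1083 in Tconv (a log2 difference of 2.37 with SE 0.25 and adjusted p = 1.06e-05). Il2ra, which encodes CD25, the interleukin-2 receptor chain by which Treg are often sorted, read 5257, 2154 and 5643 against 588, 86.2, 729 and 34.8 (4.38, SE 1.06, adjusted p = 0.021). The groups did not overlap, but Tconv WT 1 and 3 stood far above Tconv WT 2 and 4. Ifngr1 read 20505, 19689 and 20555 against 11179, 9593, 14044 and 15051 (0.72, SE 0.17, adjusted p = 0.0166), and Il9r differed by 2.22 (adjusted p = 0.0257 in limma). Il12rb2, the receptor chain by which interleukin-12 drives Th1 cells, was the member called lower, at 1.91, 1 and 2.10 against 209, 31.4, 138 and 58.4 (−5.04, SE 1.02, adjusted p = 0.00594). The shared chains Il2rg, Il2rb and Il7r did not pass (0.78, 0.38 and 0.23). Il1rl1, the interleukin-33 receptor ST2, was the 1 called member of 11 interleukin-1 family receptors and their adaptors, and only just (4.18% of all genes tested were called). It read 12534, 1725 and 14889 in Treg and 1566, 25.4, 1746 and 201 in Tconv, so Tconv WT 3 lay above Treg WT 2 (4.30, SE 1.21, adjusted p = 0.049). Calls lost when 1 library was left out were these (limma adjusted p): Il2ra without Tconv WT 4, Tconv WT 2, Treg WT 1 or the library labelled Treg WT 3 (0.0664 to 0.09), Ifngr1 without Tconv WT 2, Treg WT 1 or the library labelled Treg WT 3 (0.0508 to 0.0653), Il9r without Tconv WT 4, Tconv WT 2, Treg WT 1 or the library labelled Treg WT 3 (0.073 to 0.0883), and Il1rl1 without Tconv WT 4, Tconv WT 2, Treg WT 1 or the library labelled Treg WT 3 (0.113 to 0.192). By voom Il1rl1 (0.145) was not called, in a fit of only the WT libraries Ifngr1 (0.056), Il1rl1 (0.126) and Il9r (0.0945) were not, with quantile scaling Ifngr1 (0.198) and Il1rl1 (0.0562) were not, with no filter Il1rl1 (0.0675) was not, with a pseudocount of 0 Il1rl1 (0.0564) was not, and with a robust prior Il1rl1 (0.11) was not (limma adjusted p).

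Genes of lipid and steroid handling gave some of the highest single differences. Cyp4f18 (chromosome 8, 71988482 to 72009626), a cytochrome P450 that inactivates leukotriene B4, was the 1 called member of 18 eicosanoid enzymes (2 without Treg WT 2), beside 4.18% called of all genes tested. It had at most 2 reads in a Tconv library, and its exons overlap those of Zfp961. Slco2b1, an uptake carrier for steroid sulfates and other organic anions, read 1316, 314 and 1508 in Treg and had reads in 1 Tconv library, at 11.1. Cyp11a1, which makes the first step of steroid synthesis, read 511, 1536 and 476 against 2.03, 11.1, 14.1 and 10.0 (a log2 difference of 6.35 with SE 0.84 and adjusted p = 0.000118). Treg WT 2 was the lowest Treg library for Cyp4f18 and Slco2b1 and the highest for Cyp11a1. These were 2 of 14 steroid and xenobiotic genes, with Abcb1a, Abcg1 and Slco3a1 among those that did not pass. The receptor for leukotriene B4, Ltb4r1, read 6306, 1903 and 7447 in Treg and 1358, 139, 1796 and 135 in Tconv, without overlap, and missed the threshold (3.27, SE 0.93, adjusted p = 0.0532).

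Lipid droplet genes had 3 of 13 members called higher and 0 lower. The number called higher was 1 without Tconv WT 2 or the library labelled Treg WT 3. Plin2, the coat protein of lipid droplets, read 11111, 4799.7 and 9379 in Treg and 1561, 523, 2467 and 436 in Tconv (a log2 difference of 3.03 with SE 0.58 and adjusted p = 0.00427). Dgat1 and Dgat2, the enzymes that complete triglyceride, read 8939.9, 10026 and 24948 against 3404, 1225, 6403 and 1441 (2.39, SE 0.54, adjusted p = 0.0137) and 220.1, 318 and 477 against 49.6, 19.3, 40.2 and 33.6 (3.21, SE 0.81, adjusted p = 0.0266). Tconv WT 1 and 3 were above Tconv WT 2 and 4 for each of these genes. Of 21 genes of sterol and fatty acid synthesis, Srebf2 (0.88) and Elovl5 (1.49) were called higher and Scd2, a desaturase, lower at 10.1, 1 and 1 against 173, 125, 143 and 153 (−5.39, SE 1.20, adjusted p = 0.0128). None of 18 genes of fatty acid oxidation and none of 14 of fatty acid uptake was called in limma. At an unadjusted limma p under 0.05 there were 0 and 2, beside 2339 of all 14319 genes tested. Voom called 0 in both lists. Cpt1a, the gatekeeper of mitochondrial fatty acid entry, read 1907, 1145 and 1619.8 against 1054, 1144, 970.2 and 1383 (0.43, SE 0.26, adjusted p = 0.452). Single libraries could end several of these calls (limma adjusted p): Dgat1 without Tconv WT 2 or the library labelled Treg WT 3 (0.0504 and 0.098), Dgat2 without Tconv WT 4, Tconv WT 2, Treg WT 2 or the library labelled Treg WT 3 (0.0551 to 0.12), Srebf2 without the library labelled Treg WT 3 (0.0578), Elovl5 without Tconv WT 4, Tconv WT 2, Treg WT 1 or the library labelled Treg WT 3 (0.068 to 0.166), and Scd2 without the library labelled Treg WT 3 (0.064). By voom Dgat2 (0.0905), Scd2 (0.576) and Elovl5 (0.0759) were not called, in a fit of only the WT libraries Srebf2 (0.0692) and Elovl5 (0.0904) were not, and with a pseudocount of 0 Dgat2 (0.0579) was not (limma adjusted p).

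Chemokine receptors split between the cell types, with 3 of 16 called higher in Treg and 2 lower. Ccr3, best known from eosinophils, read 1806, 1086 and 2329 in Treg and 43.4, 90.3, 1 and 41.5 in Tconv (a log2 difference of 6.10 with SE 0.95 and adjusted p = 0.00068). Ccr1 and Ccr2, receptors for inflammatory chemokines, read 1646, 106 and 871 against 4.10, 41.6, 1 and 1 (6.62, SE 1.02, adjusted p = 0.000626) and 6015, 3004 and 4896 against 1479.5, 1132, 1404 and 884 (1.89, SE 0.38, adjusted p = 0.00587). Treg WT 2 was the lowest Treg library for all 3, by the widest margin for Ccr1. Cxcr3, the receptor that draws Th1 cells to inflamed tissue, read 777, 2564 and 654 in Treg and 4362, 6772, 3404 and 5573 in Tconv (−2.15, SE 0.38, adjusted p = 0.00188). Cxcr5, which leads cells to follicles, had no reads in Treg and 528, 705, 114 and 207 in Tconv (−7.26, SE 0.89, adjusted p = 5.35e-05), and its exons overlap those of Bcl9l. Ccr8, Cxcr6 and Ccrl2 did not pass (0.82, 0.11 and 1.02). By voom Ccr1 (0.0942) was not called (limma adjusted p).

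Receptors for lipids, purines and neurotransmitter-like ligands that steer T cells gave 5 of 24 members called lower in Treg and 0 higher. The list as a whole was split, with a median of 0.05 and 14 of 24 differences above 0. Ltb4r1, described above at 3.27 and not called, is 1 of its members. In KO 3 members were called higher and 4 lower. Gpr183, which follows oxysterol gradients, read 333, 208 and 209 in Treg and 1740.1, 2772, 2026 and 2562 in Tconv (a log2 difference of −3.19 with SE 0.26 and adjusted p = 6.89e-07). S1pr1, by which T cells leave tissues and lymph nodes, read 1574, 758 and 1304 against 2434, 3896, 2653 and 2848 (−1.33, SE 0.26, adjusted p = 0.00581). Ptger4, a receptor for prostaglandin E2, the substrate of the enzyme encoded by Hpgd, read 488, 564 and 449 against 1174, 1162, 884 and 1197 (−1.14, SE 0.22, adjusted p = 0.00411). For each of the 3 genes the Treg libraries lay below every Tconv library. Gpr18 read 16.5, 14.1 and 1 against 205, 354, 218 and 351 (−5.08, SE 0.78, adjusted p = 0.000558), and Lpar6, whose exons overlap Rb1, differed by −1.38 (adjusted p = 0.022 in limma). P2ry10 and S1pr4 did not pass (−0.13 and 0.02). The call of Lpar6 was lost in several fits without 1 library (limma adjusted p): Lpar6 without Tconv WT 4, Tconv WT 1, Treg WT 2 or the library labelled Treg WT 3 (0.054 to 0.1). By voom Lpar6 (0.0574) was not called, in a fit of only the WT libraries Lpar6 (0.144) was not, and with quality weights Lpar6 (0.0704) was not (limma adjusted p).

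Adhesion molecules had 4 of 23 members called higher in Treg and 4 lower. The number called higher was 2 without the library labelled Treg WT 3 or Treg WT 1. Without Treg WT 2, 2 were called lower. Itgb1, the β1 integrin chain, read 932, 824 and 1000.1 in Treg and 5280.4, 6348, 4169.5 and 5882 in Tconv (a log2 difference of −2.55 with SE 0.22 and adjusted p = 1.41e-06). Ly6c2, a glycoprotein of memory and effector T cells, read 15.6, 81.3 and 90.3 against 1278, 2388, 983 and 3925 (−5.21, SE 0.56, adjusted p = 1.13e-05). Itgal, a chain of LFA-1, read 3394, 2429 and 3334 against 5544, 6159, 4814 and 5958 (−0.89, SE 0.20, adjusted p = 0.0141), while its ligand Icam1 was higher in Treg at 4153, 3234 and 3169 against 1424, 1501, 1292 and 2046 (1.18, SE 0.20, adjusted p = 0.00152). Itgav, the αv chain by which cells activate latent TGF-β, read 3675, 2396 and 6366 against 938, 370.4, 1578 and 572 (2.35, SE 0.41, adjusted p = 0.00182). Ly6a, a relative of Ly6c2, was higher by 1.63. The remaining called members, outside the naming rule and chosen after their values were seen, were Itgb7 (0.85), higher in Treg, and Itga4 (−0.83), lower. Ly6 genes have near-identical copies, and how reads were split among them is not given in the sources used here. Calls that 1 library could end were these (limma adjusted p): Itgal without Treg WT 2 (0.0652), Ly6a without Treg WT 1 or the library labelled Treg WT 3 (0.0825 and 0.113), Itgb7 without Tconv WT 4, Tconv WT 3, Tconv WT 2, Tconv WT 1, Treg WT 1 or the library labelled Treg WT 3 (0.0527 to 0.224), and Itga4 without Tconv WT 4, Tconv WT 2, Treg WT 2 or the library labelled Treg WT 3 (0.0509 to 0.0756). By voom Ly6a (0.0527) and Itgb7 (0.103) were not called, in a fit of only the WT libraries Itgb7 (0.0963) was not, with no filter Itgb7 (0.0582) was not, and with quality weights Itga4 (0.0507) was not (limma adjusted p).

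Genes of T cell receptor signalling had 9 of 31 members called lower in Treg and 1 higher, with a median of −0.49. These are transcript levels of activating and inhibitory members alike, and signalling itself was not measured. Themis (chromosome 10, 28668360 to 28883818), which sets the signalling threshold of the receptor, read 6.48, 13.2 and 7.62 in Treg and 1072, 1192, 1579 and 1449.8 in Tconv, a log2 difference of −7.07 (SE 0.59, adjusted p = 6.89e-07 in limma). Lck, the kinase that starts the signal, read 7092, 5587 and 4497 against 10661, 11193, 10216 and 11255 (−0.94, SE 0.18, adjusted p = 0.00378), and the scaffold Lat read 2689, 2392 and 3315 against 4270.2, 5187, 6119 and 5259 (−0.90, SE 0.17, adjusted p = 0.00398). Ptpn6, which encodes the phosphatase SHP-1, read 262, 208 and 100.2 against 1560.2, 1282, 989 and 805 (−2.67, SE 0.38, adjusted p = 0.000246). The kinase Txk and the adaptors Grap2 and Lax1 differed by −3.63, −1.70 and −2.71 (adjusted p = 0.000503, 0.00117 and 0.00352 in limma). Ubash3b, which encodes the inhibitory phosphatase Sts-1, was the member called higher, at 2121, 947 and 1807 against 441, 433, 225 and 352 (2.13, SE 0.38, adjusted p = 0.00224). Cd4, Cd6 and Cd3g did not pass (−0.43, −0.49 and −0.22). Without the library labelled Treg WT 3 and Tconv WT 1 and 3, 6 were called lower and 0 higher. Pde7a, a phosphodiesterase that breaks down cyclic AMP, was the 1 called gene of 22 of cAMP signalling (2 without Treg WT 1 or without Treg WT 2), beside 4.18% called of all genes tested. It read 12.0, 107 and 76.0 in Treg and 1799, 931, 1528 and 900.5 in Tconv (−4.70, SE 0.50, adjusted p = 1.13e-05). By voom Txk (0.0808) was not called (limma adjusted p).

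Called effector cytokines were lower in Treg. Of 14 helper cytokines tested 6 were called lower and 0 higher, with a median of −1.24, and the number was 1 without the library labelled Treg WT 3 and Tconv WT 1 and 3. The number called lower was 2 without Treg WT 1 and 3 without Tconv WT 4, Tconv WT 1 or the library labelled Treg WT 3. Il2, the growth factor that Treg consume and do not make, read 1.91, 24.6 and 1 in Treg and 122, 102, 176 and 137 in Tconv (a log2 difference of −4.65 with SE 0.92 and adjusted p = 0.0056). Ifng, the Th1 cytokine interferon-γ, read 533, 1726 and 222 against 3357, 3466, 2052 and 4307 (−2.43, SE 0.59, adjusted p = 0.0222), with Treg WT 2 nearest to Tconv. Il21 read 1.91, 3.62 and 1 against 232, 74.1, 11.1 and 15.6 (−3.85, SE 0.99, adjusted p = 0.0289), highest in Tconv WT 1. Il4 and Il6 had no reads in Treg and 152, 13.2, 60.4 and 21.3 and 44.4, 9.12, 149 and 67.4 in Tconv (adjusted p = 0.0446 and 0.0365 in limma), at least 15.9-fold and 17.4-fold lower in Treg against a floor of 3 reads in each Treg library. Without Tconv WT 1 the bound for Il4 was 8.13-fold, and without Tconv WT 3 that for Il6 was 10.4-fold. Il5, looked up after its values were seen, read 33.9, 1 and 69.4 in Treg and 599.7, 1, 426 and 2.13 in Tconv, so it was high in Tconv WT 1 and 3 and near or at no reads in the other Tconv libraries (−1.07, SE 1.93, adjusted p = 0.856). Calls lost without 1 library were these (limma adjusted p): Ifng without Tconv WT 4, Tconv WT 2, Treg WT 1 or the library labelled Treg WT 3 (0.0547 to 0.157), Il21 without Tconv WT 2, Tconv WT 1, Treg WT 1 or the library labelled Treg WT 3 (0.0741 to 0.119), Il4 without Tconv WT 4, Tconv WT 3, Tconv WT 1, Treg WT 2, Treg WT 1 or the library labelled Treg WT 3 (0.0594 to 0.12), and Il6 without Tconv WT 4, Tconv WT 3, Tconv WT 1, Treg WT 2, Treg WT 1 or the library labelled Treg WT 3 (0.0672 to 0.109). By voom Il21 (0.137), Il6 (0.0954) and Il4 (0.153) were not called, in a fit of only the WT libraries Il21 (0.147), Il6 (0.0549) and Il4 (0.0576) were not, with quantile scaling Il6 (0.055) was not, with no filter Il6 (0.0527) and Il4 (0.063) were not, with quality weights Il6 (0.0935) and Il4 (0.0804) were not, with a pseudocount of 10 Il21 (0.0651) and Il4 (0.0663) were not, and with a filter at 50 Il4 (0.0661) was not (limma adjusted p).

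Chemokines gave 3 of 11 members called lower and 0 higher. The number called lower was 1 without Tconv WT 4 or the library labelled Treg WT 3. Xcl1, which attracts cross-presenting dendritic cells, had no reads in Treg and 343, 293, 205 and 1106 in Tconv, at least 125-fold lower in Treg against a floor of 3 reads in each Treg library. Tconv WT 4 was the highest library, and without it the bound was 72.2-fold. Ccl5, a product of memory T cells, read 1534, 8557 and 1238 in Treg and 10566, 20152, 20112 and 21908 in Tconv (a log2 difference of −2.79 with SE 0.66 and adjusted p = 0.0188), and Ccl3 read 22.9, 82.1 and 1 against 118, 352, 248 and 1338 (−4.44, SE 1.02, adjusted p = 0.0154). Treg WT 2 was the highest Treg library for Ccl5 and Ccl3. Ccl4 (383, 671 and 121 against 789.9, 2528, 1109 and 7591) and Cxcl2 (6715, 826 and 3868 against 403, 35.5, 623 and 2.13) did not overlap between the groups and did not pass (−2.68, SE 1.32, adjusted p = 0.323; 5.25, SE 1.60, adjusted p = 0.0735). The calls of 2 were lost when single libraries were left out (limma adjusted p): Ccl5 without Tconv WT 4, Tconv WT 2, Treg WT 1 or the library labelled Treg WT 3 (0.0504 to 0.119), and Ccl3 without Tconv WT 4 or the library labelled Treg WT 3 (0.0554 and 0.108). By voom Ccl5 (0.0506) and Ccl3 (0.208) were not called, and in a fit of only the WT libraries Ccl3 (0.087) was not (limma adjusted p).

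Granule genes of cytotoxic cells had 6 of 18 members called lower in Treg and 0 higher, with a median of −1.49. Nkg7, a granule membrane protein, read 1159, 2984 and 354 in Treg and 6754, 9019, 7656 and 10393 in Tconv (a log2 difference of −2.96 with SE 0.63 and adjusted p = 0.00903). Lyst, which controls the size of granules, read 621, 1099 and 515 against 4507, 2919.7, 2966 and 5465 (−2.44, SE 0.29, adjusted p = 4.31e-05), and the granule protease Ctsw, whose exons overlap Fibp, read 139.7, 64.7 and 118 against 1023, 1268, 1713 and 1946 (−3.81, SE 0.53, adjusted p = 0.00021). Granzyme K, Gzmk, read 33.9, 36.8 and 1 against 1416, 1931, 1837 and 1633. Serpinb9, the inhibitor that protects killer cells from their own granzyme B, read 398, 565 and 667 against 933, 1517, 2055 and 1932 (−1.53, SE 0.33, adjusted p = 0.00904), and Crtam differed by −3.34 (adjusted p = 0.0288 in limma). Srgn, Lamp1 and Unc13d, granule genes of many cell types, did not pass (0.83, 0.14 and 0.04). Perforin, Prf1, read 19.3, 385 and 3.21 in Treg and 144, 387, 320.0 and 253 in Tconv, and Treg WT 2 reached the Tconv range (−3.02, SE 1.13, adjusted p = 0.16). The CD8 chain Cd8b1 read 115, 92.6 and 60.5 against 129, 117, 7.04 and 124 (0.48, SE 1.21, adjusted p = 0.905), and the part of CD8 T or NK cells in the granule genes was not tested. Single libraries could end 3 calls (limma adjusted p): Nkg7 without the library labelled Treg WT 3 (0.0753), Serpinb9 without Treg WT 1 (0.0515), and Crtam without Tconv WT 4, Tconv WT 3, Tconv WT 2 or Treg WT 2 (0.0632 to 0.135). By voom Serpinb9 (0.0705) and Crtam (0.181) were not called, in a fit of only the WT libraries Crtam (0.164) was not, and with quality weights Crtam (0.0674) was not (limma adjusted p).

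Killer lectin-like receptors, carried by NK and effector T cells, had 4 of 15 members called lower in Treg and 1 higher. Klrd1, which encodes CD94, had no reads in Treg and 84.8, 49.7, 114 and 126 in Tconv, at least 24.1-fold lower in Treg against the floor. Klrb1f had none in Treg and 109, 90.3, 283 and 151 in Tconv, at least 40.7-fold lower. Klrc1 had none in Treg and 16.5, 43.6, 34.2 and 115 in Tconv, at least 13.4-fold lower. Without Tconv WT 4 the bound for Klrc1 was 8.09-fold. Klrk1, the activating receptor NKG2D, had 2 reads in Treg WT 1 and none in the other Treg libraries, against 372, 368, 381 and 1124 in Tconv. The exception was Klrg1 (chromosome 6, 122270596 to 122282882), an inhibitory receptor of terminally differentiated T cells and of tissue Treg. It read 15609.6, 6045 and 16024 in Treg and 885, 51.7, 836 and 424 in Tconv (a log2 difference of 5.00 with SE 0.82 and adjusted p = 0.00117). Klrg1 was called in all 19 alternative fits. Copies within this family are alike, and reads that fit several could be split among them. By voom Klrc1 (0.0932) was not called (limma adjusted p).

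Costimulatory and checkpoint receptors gave 6 of 23 members called lower and 3 higher, with a median of −0.46. Without Treg WT 1, 1 was called higher. Slamf6, a marker of memory and stem-like T cells, read 81.3, 319 and 73.8 in Treg and 2529, 2875, 1674 and 1835 in Tconv (a log2 difference of −4.12 with SE 0.51 and adjusted p = 5.35e-05). Cd96 read 106, 303 and 136 against 962, 1180.2, 1309 and 1143 (−2.80, SE 0.39, adjusted p = 0.000189), and Btla, an inhibitory receptor, read 10.1, 61.2 and 37.4 against 822, 510.4, 588 and 227 (−4.03, SE 0.64, adjusted p = 0.000893). Cd200, an inhibitory ligand that marks follicular helper cells, differed by −4.32, and Cd160, whose exons overlap Pdzk1, had no reads in Treg and 86.8, 27.4, 70.4 and 123 in Tconv (adjusted p = 0.00491 and 0.00613 in limma). Beside Ctla4, the members called higher were Pdcd1, which encodes PD-1, at 5498, 5129 and 3782 against 1879, 2674, 2221 and 1925 (1.14, SE 0.26, adjusted p = 0.0162), and Cd200r1, the receptor of Cd200, at 2609, 833 and 1623 against 475, 273, 588 and 367 (1.89, SE 0.39, adjusted p = 0.00697), both named after their values were seen. Cd28, Tigit and Icos did not pass (−0.51, 0.67 and −0.66). These 2 calls were lost without 1 library (limma adjusted p): Pdcd1 without Treg WT 1 (0.068), and Cd200r1 without Treg WT 1 (0.0516). By voom Cd200 (0.0745) was not called, in a fit of only the WT libraries Cd200 (0.0659) was not, and with quantile scaling Pdcd1 (0.0704) was not (limma adjusted p).

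The Ms4a genes, tetraspan membrane proteins encoded side by side on chromosome 19, were lower in Treg in 4 of 6 members and higher in 0, with a median of −2.86. Ms4a4b, which modulates T cell activation, read 686, 999 and 565 in Treg and 5604, 8148, 7421 and 7944 in Tconv (a log2 difference of −3.30 with SE 0.22 and adjusted p = 6.21e-08). Ms4a6b read 1085, 1017 and 764 against 4576, 6218, 4770.4 and 4687 (−2.41, SE 0.25, adjusted p = 1.06e-05), Ms4a4c read 3.74, 1.87 and 6.51 against 133, 157, 206 and 145 (−5.09, SE 0.73, adjusted p = 0.000292), and Ms4a6c read 1, 1 and 24.2 against 263, 107, 152 and 155 (−5.12, SE 1.21, adjusted p = 0.0181). The gap between groups was wide for each of these except that the library labelled Treg WT 3 read 24.2 for Ms4a6c. Ms4a6d, known from macrophages, and Ms4a4a did not pass (−1.33 and −1.13). Copies in this cluster are similar in sequence, so reads could be divided among them. The call of Ms4a6c was lost without 1 library (limma adjusted p): Ms4a6c without Treg WT 2 or Treg WT 1 (0.0653 and 0.0765). By voom Ms4a6c (0.0756) was not called (limma adjusted p).

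The 20 called genes with the highest differences, apart from those described, hold a mixed group of enzymes and cell structure genes. Acod1, which makes the immunometabolite itaconate, read 226, 392 and 223 in Treg and had reads in 1 Tconv library, at 19.6 in Tconv WT 1 (a log2 difference of 6.24 with SE 1.13 and adjusted p = 0.00266). Jup, which encodes the junction protein plakoglobin, read 319, 213 and 735 against 6.17, 3.03, 11.1 and 4.38 (5.81, SE 0.72, adjusted p = 5.36e-05), and Lamc1, a laminin chain, 1251, 485 and 1197 against 65.1, 49.7, 1 and 13.4 (5.67, SE 0.83, adjusted p = 0.000357). Ctsh, a lysosomal protease, read 929, 557 and 953 against 12.4, 5.06, 29.2 and 3.25. Cerk, a ceramide kinase, Swap70, a regulator of the actin skeleton, Sh3bp4, which acts in endocytosis, and Cnksr3 differed by 5.76, 5.90, 6.07 and 5.65. Ablim3, an actin-binding protein, had no reads in Tconv and 261, 86.5 and 44.0 in Treg, at least 26.7-fold higher against the floor of 3 reads in each Tconv library. Treg WT 1 was the highest library, and without it the bound was 13.3-fold. Wipf3, Frmd5 and Ky differed by 7.70, 7.04 and 6.83. Bicdl2 and Rimkla, with exons that overlap Thoc6 and Zmynd12, differed by 5.70 and 5.68. Single libraries could end 2 of these calls (limma adjusted p): Sh3bp4 without the library labelled Treg WT 3 (0.0629), and Bicdl2 without Treg WT 1 or the library labelled Treg WT 3 (0.0536 and 0.0554). By voom Wipf3 (0.0556), Frmd5 (0.0982), Acod1 (0.062), Swap70 (0.0672), Bicdl2 (0.0622) and Rimkla (0.176) were not called, and in a fit of only the WT libraries Sh3bp4 (0.0538) was not (limma adjusted p).

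Among the 20 lowest not described above, Ehd3, an endocytic trafficking protein, read 41.2, 66.4 and 1 in Treg and 1157, 1803, 1552 and 1388 in Tconv (a log2 difference of −6.35 with SE 0.74 and adjusted p = 2.93e-05). Sostdc1, a secreted Wnt and BMP antagonist known from follicular T cells, read 1, 25.4 and 1 against 1323, 431, 389 and 91.1 (−6.32, SE 1.54, adjusted p = 0.0217). Spp1, which encodes osteopontin, a product of T cells and macrophages, read 1, 21.1 and 1 against 1660.5, 307, 235 and 31.4 (−5.81, SE 1.28, adjusted p = 0.0115). Sostdc1 and Spp1 were highest in Tconv WT 1, the library in which Lyz2 and S100a8 were also highest, and the part of other cells in them was not tested. Kcnj8, a potassium channel, Ret, a receptor kinase, and Tacc3, a spindle protein whose exons overlap Tmem129, had no reads in Treg, at least 38.1-fold, 38.5-fold and 23.7-fold lower. Cpne7, Apol7e, Mboat1, St3gal6, Serpina3f and Esm1 differed by −6.28, −5.90, −5.76, −5.55, −6.82 and −6.59. Calls lost without 1 library were these (limma adjusted p): Sostdc1 without Tconv WT 2, Tconv WT 1, Treg WT 1 or the library labelled Treg WT 3 (0.0527 to 0.101), Spp1 without Treg WT 1 or the library labelled Treg WT 3 (0.0526 and 0.0656), and Apol7e without the library labelled Treg WT 3 (0.061). By voom Esm1 (0.113), Sostdc1 (0.537), Kcnj8 (0.11), Apol7e (0.0621), Spp1 (0.33), Ret (0.324) and Tacc3 (0.062) were not called (limma adjusted p).

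The most abundant called genes differed less. Among those higher in Treg, the class I molecules H2-K1 and H2-D1 read 103447, 87597 and 108189 and 116718, 79469 and 101525 in Treg, against 71194, 47980.4, 71664 and 53392 and 60035, 52568, 50500.5 and 54552 in Tconv (a log2 difference of 0.72 with SE 0.16 and adjusted p = 0.0138; 0.85, SE 0.15, adjusted p = 0.00182). H2 genes have close copies, and these values are uncertain for that reason. Dusp1, a phosphatase that switches off MAP kinases, read 61586, 29531 and 31197 against 19686, 19898, 17404 and 14397 (1.12, SE 0.22, adjusted p = 0.00542). Ly6e, Ahnak, Serinc3 and Lmna, the last encoding lamin A/C, differed by 1.04, 0.95, 1.28 and 2.01 (adjusted p = 0.00671, 0.0191, 0.00369 and 0.0479 in limma). The range of the 10 most abundant genes called higher was 0.72 to 2.39, and that of the 10 called lower −3.30 to −0.76. Several of these calls were near the threshold (limma adjusted p): H2-K1 without Tconv WT 4, Tconv WT 2, Treg WT 1 or the library labelled Treg WT 3 (0.0501 to 0.0786), Ly6e without the library labelled Treg WT 3 (0.059), Ahnak without Tconv WT 2, Treg WT 1 or the library labelled Treg WT 3 (0.0549 to 0.111), and Lmna without Tconv WT 4, Tconv WT 2, Tconv WT 1, Treg WT 1 or the library labelled Treg WT 3 (0.0731 to 0.252). By voom Ahnak (0.0527) and Lmna (0.14) were not called, in a fit of only the WT libraries H2-K1 (0.0518), Ly6e (0.0666) and Lmna (0.0637) were not, with quantile scaling H2-K1 (0.479), H2-D1 (0.13), Ahnak (0.0623) and Lmna (0.0537) were not, with no filter Lmna (0.065) was not, with a pseudocount of 0 Lmna (0.054) was not, and with a robust prior Lmna (0.0566) was not (limma adjusted p).

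**Figure D3:**
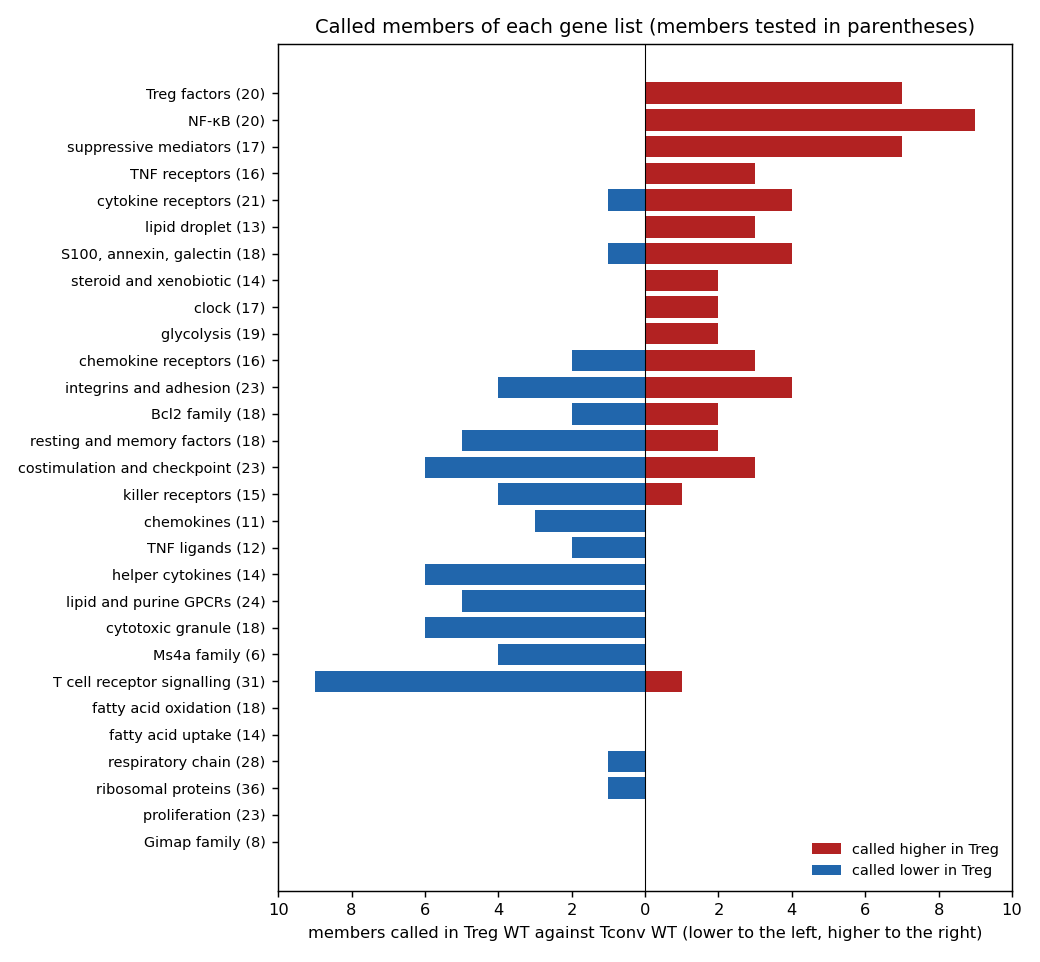
Bars give the number of members of each gene list called higher (red, to the right) or lower (blue, to the left) in Treg WT against Tconv WT, with the number of members tested in parentheses; the x axis counts genes. NF-κB genes reach 9 called higher, T cell receptor signalling genes 9 called lower, and the proliferation, Gimap, fatty acid oxidation and fatty acid uptake lists have no bar.

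Lists of housekeeping and growth genes had counts to be read beside the 4.18% called among all genes. Of 36 ribosomal protein genes 1 was called, Rpl10, lower at 1634, 1393 and 1565 against 2739, 2658, 3216 and 3082 (−0.93, SE 0.19, adjusted p = 0.00587), although the median of the list was −0.25. Among 28 respiratory chain genes 1 was called, Ndufa4, lower at −1.08, and among 14 heat shock genes 0, with medians of −0.01 and −0.56. Of 23 proliferation genes 0 were called, and the cyclin Ccnd2 read 6359, 5313 and 6134 against 5789, 5451, 5506 and 6378. The Gimap genes, small GTPases of lymphocyte survival, had 8 of 8 differences below 0 and 0 calls in limma. Gimap6 read 9292, 10431 and 7860.3 in Treg and 12406, 12082, 14538 and 12095 in Tconv, without overlap (−0.48, SE 0.17, adjusted p = 0.135). Over all 14319 genes tested, 2339 had an unadjusted limma p under 0.05. Among them were 5 heat shock genes, 5 proliferation genes and 5 Gimap genes, and voom called 0 in each of these 3 lists. A p above the threshold does not show that these genes were alike in the cell types. Ndufa4 was close to the threshold (limma adjusted p): Ndufa4 without Tconv WT 4, Tconv WT 1, Treg WT 1 or the library labelled Treg WT 3 (0.0638 to 0.157). By voom Ndufa4 (0.0659) was not called, and in a fit of only the WT libraries Ndufa4 (0.159) was not (limma adjusted p).

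Libraries of a group were not alike, and 18 genes chosen after their values were seen show how. Treg WT 2 was low in some genes typical of fat Treg and not in others. Its Il1rl1 read 1725 where the other Treg libraries read 12534 and 14889, and its Areg 844 where they read 4869.8 and 4187. Its Ikzf2 read 4651 where they read 4172 and 2414. The same library was high in some genes more typical of Tconv: for Tbx21 it read 1713 against 381 and 111, and for Ccl5 8557 against 1534 and 1238. Other such genes were not high in it, among them Itgb1, at 824 against 932 and 1000.1, and Eomes, without reads. Treg WT 2 also had the highest Treg level of Lrrc32 and H2-Eb1, at 3905 and 1807. On the other side, Tconv WT 1 and 3 carried more Il1rl1 (1566 and 1746) than Tconv WT 2 and 4 (25.4 and 201), and the same split held for Il2ra, Ltb4r1, Cxcl2 and Il5. Foxp3 did not follow this split, at 20.6, 1, 1 and 39.3 in Tconv. Calls of these genes that 1 library could end were as follows (limma adjusted p): Il1rl1 without Tconv WT 4, Tconv WT 2, Treg WT 1 or the library labelled Treg WT 3 (0.113 to 0.192), Areg without Treg WT 1 or the library labelled Treg WT 3 (0.0663 and 0.0743), Ccl5 without Tconv WT 4, Tconv WT 2, Treg WT 1 or the library labelled Treg WT 3 (0.0504 to 0.119), H2-Eb1 without Tconv WT 3, Tconv WT 2, Treg WT 2, Treg WT 1 or the library labelled Treg WT 3 (0.0526 to 0.102), and Il2ra without Tconv WT 4, Tconv WT 2, Treg WT 1 or the library labelled Treg WT 3 (0.0664 to 0.09). Without Treg WT 2 the number of called genes was 664 (378 higher and 286 lower), of which 464 were among the 599. Without Tconv WT 1 and 3 it was 451 (275 higher and 176 lower), with 346 among the 599. The Y-linked gene Ddx3y read 1372, 749 and 1534 in Treg and 1645, 609.9, 1420.0 and 475 in Tconv.

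**Figure D4:**
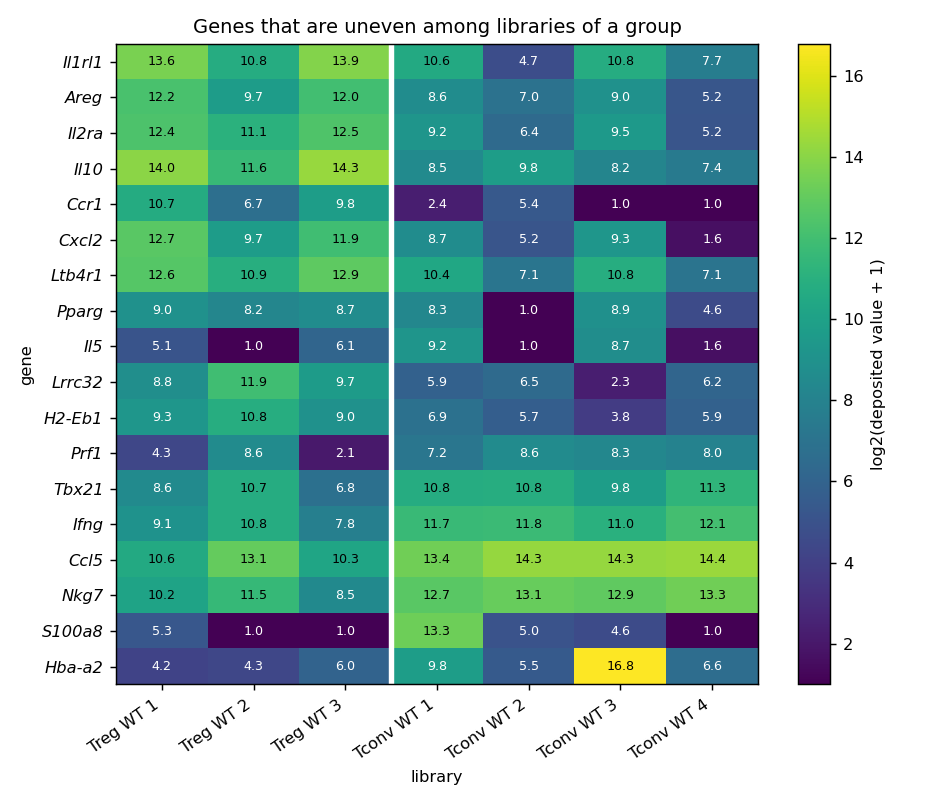
Rows are 18 genes and columns the 7 WT libraries (a white line parts Treg from Tconv); colour and printed numbers are log2(deposited value + 1), with 1.0 for no reads. Treg WT 2 is lower than the other Treg libraries from Il1rl1 to Cxcl2 and higher from Lrrc32 to Nkg7; Tconv WT 1 and 3 are higher than Tconv WT 2 and 4 for Il1rl1, Il2ra and Il5; S100a8 is high in Tconv WT 1 and Hba-a2 in Tconv WT 3.

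The same comparison in the KO mice shares no library with the WT one, only the estimate of the spread. There 975 genes were called (6.81%), 595 higher and 380 lower in Treg, from 4 and 5 libraries. Of the 599 genes called in WT, 581 (97.0%) had the same sign in KO, against 64.5% of all genes tested. Called in the same direction in both were 411 genes, which are 68.6% of those called in WT and 42.2% of those called in KO, and 0 were called in opposite directions. The difference between the WT and KO contrasts was tested in the same limma fit, and 748 of 14319 genes had an unadjusted p under 0.05. That share is close to 0.05, the share expected where no gene differs. After adjustment 0 genes passed (0%), and the smallest adjusted p was 0.293. Voom called 0 as well, while leaving out Treg WT 1, Treg KO 2 or Tconv KO 3 gave 1, 2 and 1. Genes called in 1 genotype and not in the other are therefore not shown to differ between them.

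Foxp3, Ikzf2, Gata3, Il10 and Ctla4 had KO differences of 7.19, 2.90, 2.76, 3.95 and 1.48, beside 5.64, 2.74, 1.98, 4.86 and 1.42 in WT. On the lower side Tcf7, Themis, Fasl, Itgb1 and Ms4a4b had −4.03, −5.04, −6.11, −1.76 and −3.35 in KO, beside −4.01, −7.07, −5.40, −2.55 and −3.30. NF-κB genes had 15 of 20 called higher in KO against 9 in WT, and annexin, S100 and galectin genes 11 of 18 against 4. Of all 14319 genes tested, 595 were called higher in KO against 315 in WT. No test of these list counts between genotypes was made. Of the annexin, S100 and galectin genes in WT, the number called higher was 1 without Treg WT 1 and 2 without Tconv WT 3, Tconv WT 1 or the library labelled Treg WT 3. Of the 18 genes called in WT whose KO difference had the other sign, Rimkla stood out at 5.68 in WT and −2.29 in KO (difference 7.97, adjusted p = 0.293 in limma), with Treg WT levels of 84.1, 124 and 202 and 1 Tconv WT library with reads. Tacc3 and Nphp4, both without reads in Treg WT, differed by −5.43 and −4.26 in WT and by 0.20 and 1.90 in KO (difference adjusted p = 0.552 and 0.552 in limma). Fxyd6, Invs and Atxn7l1os2 were the other genes with the smallest p of the difference, at −5.23, 2.78 and 5.18, and none of these passed in limma. Nphp4 lost its WT call without 1 library (limma adjusted p): Nphp4 without the library labelled Treg WT 3 (0.0539).

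**Figure D5:**
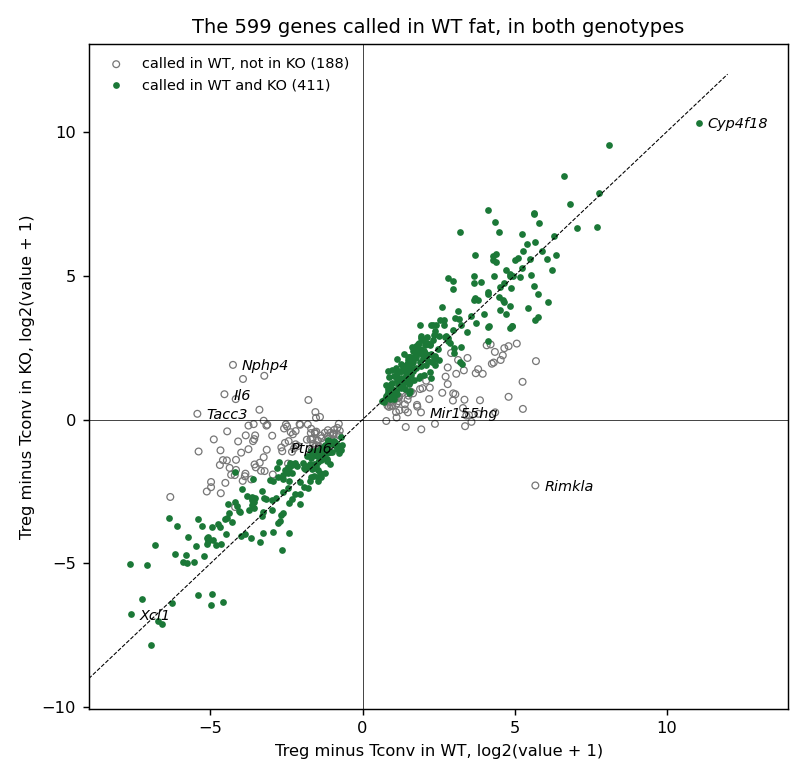
Points are the 599 genes called in WT fat; the x axis is their Treg minus Tconv difference in WT and the y axis that in KO, both on the log2(value + 1) scale, and the dashed line marks equal differences. Filled points (411) are called in KO too and open points (188) are not; most lie in the quadrants of equal sign, and Rimkla, Nphp4, Il6 and Tacc3 do not.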

How the data were processed

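RNA from sorted Treg and Tconv of mouse visceral fat was sequenced after SMART-seq2. The deposited signal values are, from the numbers themselves, whole reads divided by a size factor of each library, plus 1; every value minus 1 came out as a whole multiple of the worth of 1 read (tolerance 0.1 reads, genes under 1000 reads). Per the submitters' processing notes the tools included kallisto 0.44 and DESeq2, with mm10 as the build; no source read here states their settings or the strand.

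The members of the comparison and the gene lists were chosen with earlier results of these data known. Of 19540 genes, the 14319 with a value of at least 10 in at least 3 of 16 libraries were tested. limma 3.58.1 (R 4.3.3, trend prior) was fitted to log2(value + 1) of all 16 libraries, with contrasts for WT, KO and their difference and Benjamini-Hochberg adjustment. The fit was tested on simulated counts that had the same spread for every gene and libraries that differed by chance only in depth. That test does not show how the fit behaves with libraries as uneven as these.

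Named genes were Foxp3 and Hpgd; the 20 highest and 20 lowest differences and the 10 most abundant genes per direction, among called genes without overlap and with a higher group mean of at least 50; up to 6 called and 3 uncalled members of each list described; up to 3 of each marker list; and the 3 smallest p per direction for the difference of WT and KO. Others are marked as chosen after their values were seen. A fold against a group without reads uses a floor of 3 reads per library, which covers counting error only. Same-numbered WT libraries are not said to be paired, so no block was used. Positions are from GENCODE M21, matched by symbol for 94.2% of genes. Antigen receptor segments were not analysed here, and 2 members of the gene lists are not reported here.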

Additional observations from a re-analysis of the deposited data

Results flagged for a closer look

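In 26 of the 327 results examined, 1 of the 4 Tconv WT libraries lay far from the other three on the log2(value + 1) scale. Chance alone marks about 1 in 20 groups. That rate does not hold for 11 of the 26, in which the other libraries had no reads, since any read then stands apart. The remaining 15 were about as many as that rate gives. Values are deposited levels, and the others in each group are given as a level or range. Where the other three libraries had no reads, the values were: Cyp4f18 at 3.07 in Tconv WT 1, Slco2b1 at 11.1 in Tconv WT 2, Wipf3 at 9.12 in Tconv WT 2, Ky at 7.09 in Tconv WT 2, Acod1 at 19.6 in Tconv WT 1, Sh3bp4 at 119 in Tconv WT 1, Ebi3 at 5.06 in Tconv WT 2, Rimkla at 4.02 in Tconv WT 3, Cnksr3 at 3.03 in Tconv WT 2, Cd79b at 14.4 in Tconv WT 1, Fxyd6 at 2.01 in Tconv WT 3. Tconv WT 1 was high for Csf1r (132 against 1 to 2.13). Tconv WT 1 was low for Ccl5 (10566 against 20112 to 21908), Selplg (4409 against 6273 to 6443). Tconv WT 2 was high for Ms4a6b (6218 against 4576 to 4770.4). Tconv WT 2 was low for Atp5a1 (3537 against 4031 to 4072). Tconv WT 3 was high for Gimap6 (14538 against 12082 to 12406), Rps19 (12349 against 9895 to 10158), Zbtb46 (181 against 83.2 to 89.9). Tconv WT 3 was low for Ptger4 (884 against 1162 to 1197), Lrrc32 (4.02 against 59.9 to 88.3), Ctsb (2029.9 against 3104 to 3278), Cd8b1 (7.04 against 117 to 129). Tconv WT 4 was high for Klrk1 (1124 against 368 to 381), Cd27 (2578 against 1552 to 1687), Slco3a1 (801 against 392 to 441). The part of macrophages in Csf1r was not tested. These were values of single libraries, and no explanation was tested.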

How the results depend on the processing

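The number of genes called in WT was 599. It was 310 when only the WT libraries were fitted (297 among the 599), 288 by voom on the recovered reads (284 among them) and 251 without the library labelled Treg WT 3 and Tconv WT 1 and 3 (216 among them), and it ranged from 339 to 664 when 1 library was left out. The lowest of these was without the library labelled Treg WT 3. The number called in the same direction in KO, 411, was 238 by voom, 208 without those 3 libraries, and 242 to 480 with 1 library left out. The count for the difference between WT and KO, 0, was 0 to 2 with 1 library left out. Other filters, pseudocounts, quantile scaling, quality weights and a robust prior gave 525 to 657 calls in WT, and 597 with quantile scaling, where 49.7% were higher against 52.6%. The KO count of 975 ranged from 652 to 1092 with 1 library left out. Of 165 named called genes, 63 were called in every alternative that was run and 0 changed direction. The cause of these changes was not tested.

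A replicate block put the WT count at 507 (271 higher, 236 lower), with 419 among the 599; the KO count was 841 and that of the difference 0. Deviations of same-numbered WT libraries correlated at 0.079, 0.076 and 0.024, and each of 7 Treg libraries correlated best with its own number, a hint from the data and not the design. The planned fits with TMM scaling, edgeR and DESeq2 were not run; voom was the test run on the recovered reads. Of the 165 named called genes, voom left 66 uncalled, the fit of only WT libraries 42 and quantile scaling 9. Low levels rest on few reads: 1 read is worth 0.87 to 2.03 in the WT libraries. Leaving out KO libraries was chosen after seeing the data.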

Other observations

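Of 18 S100, annexin and galectin genes 4 were called higher in Treg and 1 lower, led by Anxa1, a membrane-binding protein that dampens inflammation, at 10348, 3907 and 8105 in Treg and 1039, 1044, 1196 and 1254 in Tconv (a log2 difference of 2.61 with SE 0.49 and adjusted p = 0.00385 in limma). No member was called without the library labelled Treg WT 3 and Tconv WT 1 and 3. Among 18 Bcl2 family and death genes, Bcl2, which protects from apoptosis, was lower at 271, 446 and 400.2 against 1176, 1724, 1900.1 and 1333 (−2.04, SE 0.50, adjusted p = 0.0231 in limma), and its relative Bcl2l1 was higher at 1183, 1103 and 1499 against 393, 504, 788 and 285 (1.44, SE 0.37, adjusted p = 0.0285 in limma). The list had 2 called in each direction and none without Treg WT 1 or without the library labelled Treg WT 3. Calls lost without 1 library were these (limma adjusted p): Bcl2 without Tconv WT 3, Tconv WT 2, Treg WT 1 or the library labelled Treg WT 3 (0.0541 to 0.0895), and Bcl2l1 without Tconv WT 4, Tconv WT 2, Tconv WT 1, Treg WT 1 or the library labelled Treg WT 3 (0.0527 to 0.124). By voom Bcl2l1 (0.0777) was not called, and in a fit of only the WT libraries Bcl2l1 (0.0529) was not (limma adjusted p).

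Of 8 regulators of G protein signalling, Rgs3 was lower at 399.9, 520.0 and 369 against 939.8, 1237, 821 and 1548 (−1.37, SE 0.27, adjusted p = 0.00486 in limma) and Rgs16 higher at 2399, 1211 and 2182 against 782, 1009.8, 638 and 703 (1.26, SE 0.31, adjusted p = 0.0246 in limma). Per1 and Nr1d2 were the 2 called of 17 clock genes, higher in Treg by 0.92 and 1.12. This count and that of the glycolysis genes are to be read beside the 4.18% called among all genes tested. Slc16a3, a lactate exporter, and Slc2a3, a glucose carrier, were the 2 called of 19 glycolysis genes, at 4.80 and 0.97; the first read 78.6, 909 and 144 in Treg, highest in Treg WT 2. Socs3, a feedback inhibitor of cytokine signals, read 419, 449 and 1929 in Treg and 2102, 3153, 1825 and 3709 in Tconv, so the library labelled Treg WT 3 lay within the Tconv range (−1.86, SE 0.43, adjusted p = 0.0153 in limma). Calls lost without 1 library were these (limma adjusted p): Rgs16 without Tconv WT 4, Tconv WT 3, Treg WT 1 or the library labelled Treg WT 3 (0.0594 to 0.113), Per1 without Tconv WT 4, Tconv WT 2, Tconv WT 1, Treg WT 1 or the library labelled Treg WT 3 (0.0521 to 0.199), Nr1d2 without Tconv WT 4, Tconv WT 1, Treg WT 1 or the library labelled Treg WT 3 (0.0741 to 0.111), Slc16a3 without Treg WT 2 (0.0754), Slc2a3 without Tconv WT 4, Tconv WT 3, Tconv WT 2, Treg WT 1 or the library labelled Treg WT 3 (0.054 to 0.162), and Socs3 without Tconv WT 4, Treg WT 2 or Treg WT 1 (0.0523 to 0.0867). By voom Rgs16 (0.0633), Slc16a3 (0.127), Slc2a3 (0.0578), Per1 (0.073) and Nr1d2 (0.0939) were not called, and in a fit of only the WT libraries Socs3 (0.073), Slc16a3 (0.106), Slc2a3 (0.118), Per1 (0.12) and Nr1d2 (0.0668) were not (limma adjusted p).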
